A study of Mus musculus with 24 samples.

Results

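miR-21 (mmu-miR-21 on the panel) is one of 566 mouse miRNA probes and was chosen by name, as the probe for the main mature form of miR-21 and not for its star form. It was followed in the plasma of 24 male mice of the inbred strain C57BL/6J, aged 20 weeks by the sample labels. The mice fell into 3 levels of radical exposure with 8 mice each, filtered air, EPFR lo and EPFR, breathed for 4 h/d on 5 days in a whole-body chamber. EPFR are environmentally persistent free radicals, long-lived radicals held on combustion particles, and EPFR lo particles carried fewer radicals per gram at the same particle mass, which the labels give as 250 µg per cubic meter and the methods as somewhat higher. No mouse carried an engineered transgene or deletion, each plasma sample was assayed without pooling, and hemolyzed plasma had been left out. RNA came from 200 µL of plasma, about 10 ng was assayed, and the NanoString nCounter counted single color-coded probes without amplification.

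miRNA are short RNAs that pair with messenger RNAs, chiefly through the seed (bases 2 to 8), and lower their translation or stability. miR-21 is made in many cell types, including immune, vascular and epithelial cells and fibroblasts, and is known to rise in inflamed, fibrotic and malignant tissue. Cells also release it into blood in vesicles and bound to protein, so a plasma level does not name its source.

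In GRCm38.p6 the miR-21 hairpin (Mir21a) lies at chr11:86584067-86584158 on the minus strand, inside the span of Vmp1 (chr11:86583858-86683836, minus strand), 209 bases from the end of that gene. The RefSeq table used here gives no exons, so exon and UTR were not assigned. The mature sequences below, from RefSeq, show what the probe's name stands for and which mouse relatives carry the same seed, printed in capitals.
mmu-miR-21a-5p: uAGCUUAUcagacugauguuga
mmu-miR-21a-3p: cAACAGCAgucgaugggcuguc
mmu-miR-21b: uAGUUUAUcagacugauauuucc
mmu-miR-21c: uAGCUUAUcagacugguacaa
The first is today's name for miR-21, and the second is the arm once called the star form. miR-21c shares the seed and is identical to miR-21a-5p over the first 15 bases, whereas miR-21b differs from base 4, within the seed. Only miR-21a-5p and miR-21c share this seed among 1738 mature entries in the table. The panel names no probe for the star form, miR-21b or miR-21c, and how far the miR-21 probe also reads miR-21c was not tested. Of the 566 panel names 196 matched a mature entry exactly, and 0 of those shared the seed. Panel names without an exact match may still share it. The panel also holds miR-590-5p, whose sequence is missing from that table, so its seed was not compared. miR-590-5p averaged 16.2 counts and exceeded its mouse's background limit in 0 of 24 mice.

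miR-21 was a low-abundance plasma miRNA that passed background in 15 of 24 mice. It averaged 60.0 raw counts, 0.421% of all mouse miRNA counts, and stood at rank 21 of the 41 miRNA whose mean exceeded 34.1 counts, a limit set 2 SD over the average of the 8 negative controls in all mice. Its nearest neighbors were let-7i (61.9 counts) and miR-27a (61.0 counts) above it, and miR-126-3p (58.1 counts) and miR-135a (56.3 counts) below it. These gaps are far smaller than the spread of miR-21 between mice (SD 42.4), and probes can differ in efficiency, so the order among these neighbors is not resolved. miR-451, the red blood cell miRNA that led the panel, took 27.5% of the counts.

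In order of radical exposure, miR-21 had raw counts of 31, 15, 30, 13, 42, 61, 31 and 56 in filtered air replicates 1 to 8. In EPFR lo mice the counts were 13, 44, 43, 84, 40, 144, 80 and 167. In EPFR mice they were 20, 35, 147, 45, 57, 67, 86 and 90. The groups overlapped, with 4 of 8 EPFR mice and 4 of 8 EPFR lo mice above the highest filtered air mouse, and 7 of 8 in each particle group above the filtered air median. The means were 34.9 ± 17.3 in filtered air, 76.9 ± 53.9 in EPFR lo mice and 68.4 ± 39.8 in EPFR (SD, n = 8 each). The SD was 49.7%, 70.1% and 58.2% of the mean in filtered air, EPFR lo and EPFR mice.

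**Figure D1:**
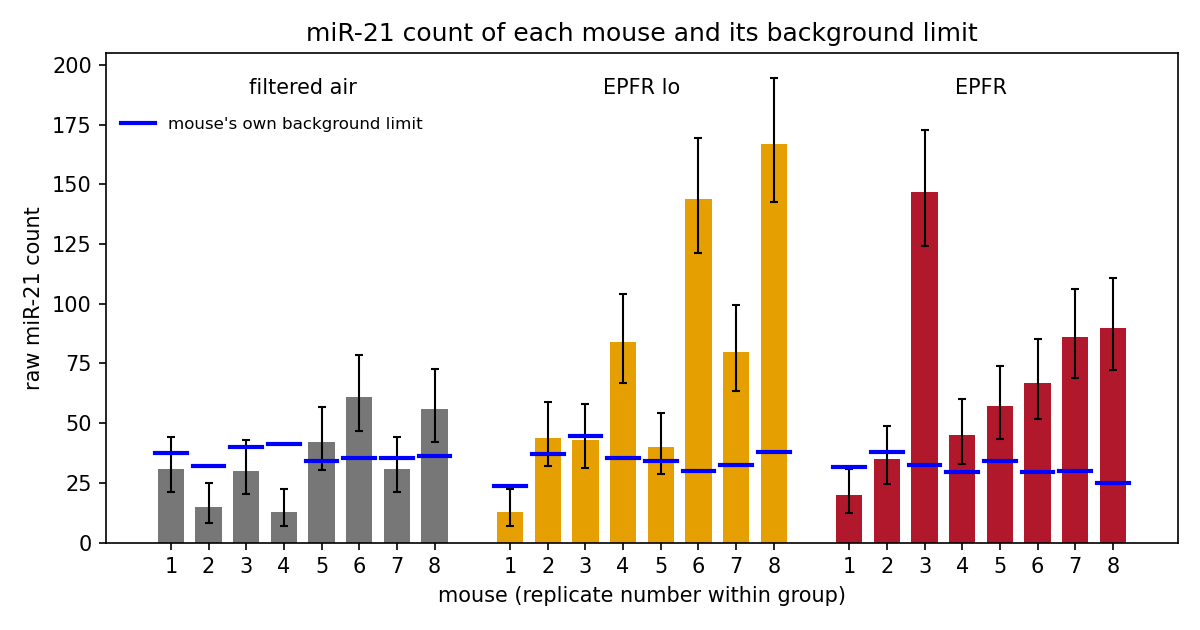
Raw miR-21 counts (y axis) of each mouse (x axis, replicate number) in filtered air, EPFR lo and EPFR mice. Bars are counts, error bars are exact 95% Poisson intervals covering counting error only, and blue lines mark the background limit of each mouse. Above that limit stood 3 filtered air, 6 EPFR lo and 6 EPFR mice.

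Each mouse has its own background limit, set 2 SD over the average of its 8 negative controls. miR-21 exceeded it in 3 of 8 filtered air, 6 of 8 EPFR lo and 6 of 8 EPFR mice (two-sided Fisher's exact test, p = 0.315 for either particle group against filtered air). The filtered air mice above the limit were replicates 5, 6 and 8. The EPFR mice below it were replicates 1 and 2, and the EPFR lo mice below it were replicates 1 and 3. The miR-21 count was on average 1.86 ± 0.80 times the mean negative control in filtered air, 4.19 ± 2.89 times in EPFR lo mice and 4.52 ± 2.96 times in EPFR (SD, n = 8 each). The negative controls themselves averaged 18.4 ± 2.2 counts in filtered air, 18.0 ± 1.8 in EPFR lo mice and 15.3 ± 1.6 in EPFR. A count that holds this much background understates a fold change.

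The first comparison asked whether inhaled EPFR shift the plasma level of miR-21. Scaled by positive controls and housekeeping probes, the miR-21 count ran from 14.5 to 160 (median 79.7) in EPFR mice and from 16.7 to 58.0 (median 25.1) in filtered air mice. EPFR mice exceeded the highest filtered air mouse in 5 of 8 cases, while EPFR replicate 1 lay below the lowest. The fitted difference was a log2 fold change of 1.20 (SE 0.36), or 2.30-fold with a 95% interval of 1.41 to 3.76. It missed the threshold after adjustment over 566 miRNA (edgeR quasi-likelihood test, adjusted p = 0.0868, unadjusted p = 0.000914), in a comparison that called 4 miRNA (0.707% of those tested), all higher. By unadjusted p it ranked 5 of 566, while 22 miRNA (3.89%) stood higher with an unadjusted p under 0.05. With 8 against 8 mice, exact permutation of log2(scaled count + 1) gave a difference of 1.03 (SE 0.47, p = 0.0474, adjusted over 3 group pairs 0.0711). DESeq2 on the same scaling gave 1.21 with a larger unadjusted p of 0.00281, and its adjusted p was 0.0163 over the 29 miRNA its filter kept but 0.318 over all 566. With replicates 1 to 4 and 5 to 8 as a block, edgeR gave 1.27 and the threshold was passed (adjusted p = 0.0264), but with that block and positive-control scaling it was not (1.19, adjusted p = 0.0910). All 4 housekeeping probes that enter the scaling were at background in filtered air replicate 2 and EPFR lo replicates 1, 2 and 4. Without these 4 mice the log2 fold change was 1.15 (SE 0.39). Over all mice these probes averaged 11.0 to 17.9 counts, in the range of the negative controls (11.0 to 29.0). Leaving out 4 mice therefore does not show that the scaling is sound in the others. In plasma, more releasing cells and more release per cell cannot be told apart.

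The same question was put to the particles with fewer radicals. The scaled count ran from 21.6 to 139 (median 76.4) in EPFR lo mice, and 5 of 8 exceeded each filtered air mouse. The log2 fold change over filtered air was 1.14 (SE 0.36), or 2.21-fold with a 95% interval of 1.35 to 3.61, and it too missed the threshold (edgeR, adjusted p = 0.131, rank 7 of 566), where 0.707% of miRNA were called while 25 (4.42%) stood higher with an unadjusted p under 0.05. With replicates 1 to 4 and 5 to 8 as a block it passed here too (1.21, edgeR adjusted p = 0.0381), and with positive-control scaling it again did not (1.18, adjusted p = 0.0724). The exact permutation test on the log2 scale gave 1.08 (SE 0.39, p = 0.0182, adjusted over 3 pairs 0.0545).

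The radical content of the particles was then compared. EPFR over EPFR lo gave a log2 fold change of 0.061 (SE 0.35), or 1.04-fold with a 95% interval of 0.646 to 1.68 (edgeR, adjusted p = 0.983, with 0.177% of miRNA called). That interval still allows a difference of more than 1.5-fold in either direction. Its sign is not settled either, since it turned negative when raw counts or several other scalings were used.

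Where the 16 particle-exposed mice were set against filtered air together, miR-21 passed in edgeR. That test estimates the spread jointly over 566 miRNA, most of them at background. No permutation test was run on the pooled groups. The log2 fold change was 1.17 (SE 0.32), or 2.25-fold with a 95% interval of 1.45 to 3.51 (edgeR, adjusted p = 0.0471), and miR-21 was the weakest by p of the 4 miRNA called of 566 (0.707%), among 29 (5.12%) that stood higher with an unadjusted p under 0.05. The other 3 were miR-1, a heart and skeletal muscle miRNA, miR-142-3p, a blood cell miRNA, and miR-376a. The call is close to the threshold: it was lost in 15 of the 24 fits that left out 1 mouse, with adjusted p up to 0.197 (without filtered air replicate 4, log2 fold change 1.07), and was lost with positive-control scaling alone (1.16, adjusted p = 0.0902). With the ligation control level of each mouse, described further on, as a covariate the log2 fold change was 0.44 (SE 0.39, edgeR adjusted p = 1.00).

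**Figure D2:**
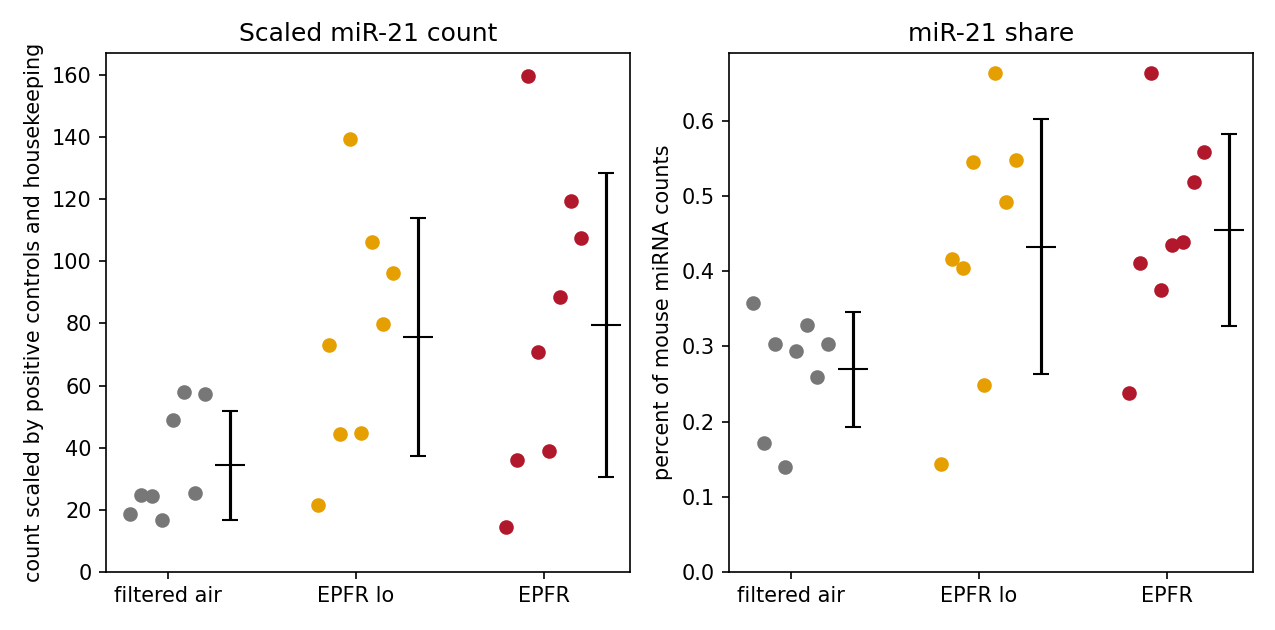
Left, miR-21 count scaled by positive controls and housekeeping probes (y axis). Right, miR-21 as a percent of all mouse miRNA counts (y axis). Each point is 1 mouse (n = 8 in filtered air, EPFR lo and EPFR), and the bar beside each group is its mean ± SD. On the right, 7 of 8 EPFR mice lie above all filtered air mice.

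A share of counts needs no control probe. Its total still includes 525 probes at or below background, so a share is not free of each mouse's yield. The lowest shares were in filtered air replicate 4 (0.140%), EPFR lo replicate 1 (0.143%) and filtered air replicate 2 (0.172%). Their ligation controls, described further on, were low, at 353, 1362 and 1002 counts. The highest shares, 0.664% in EPFR lo replicate 6 and EPFR replicate 3, came with 4645 and 5286 counts. EPFR lo replicates 5 (0.249%, 5582 counts) and 3 (0.405%, 1018 counts) went the other way. A correlation of the share with the ligation controls was not tested. miR-21 made up 0.238% to 0.664% (median 0.437%) of mouse miRNA counts in EPFR mice and 0.140% to 0.358% (median 0.299%) in filtered air mice. Only EPFR replicate 1 overlapped the filtered air range. The mean share was 0.455% ± 0.128 in EPFR against 0.270% ± 0.076 in filtered air (SD, n = 8 each), 1.69 times as high (exact permutation of 8 against 8, two-sided, p = 0.00326, adjusted over 3 pairs 0.00979). That difference stayed past the threshold in all 16 tests that left out 1 of these mice, with an adjusted p of at most 0.0224. With background subtracted the share was 0.597% ± 0.184 in EPFR and 0.298% ± 0.173 in filtered air (SD, n = 8 each), a difference of 0.299 percentage points (exact permutation p = 0.00591, adjusted 0.0177). In edgeR with total mouse miRNA counts as the scaling, the log2 fold change in EPFR was 0.76 (SE 0.25) and missed the threshold over 566 miRNA (adjusted p = 0.109). In EPFR lo the share was 0.433% ± 0.170 (SD, n = 8), with 6 of 8 mice above all filtered air mice (exact permutation p = 0.0277, adjusted 0.0415), and that call was lost in 12 of 16 tests that left out 1 mouse, with an adjusted p of up to 0.083 without EPFR lo replicate 6. The EPFR share exceeded the filtered air share by 0.179 percentage points over replicates 1 to 4 alone, and by 0.192 over replicates 5 to 8. EPFR and EPFR lo shares differed by 0.022 percentage points (exact permutation p = 0.768). Within a single mouse the counting error was sizeable, as in EPFR replicate 3 with 0.664% (Wilson 95% interval 0.565% to 0.779%) and filtered air replicate 4 with 0.140% (0.082% to 0.239%). Wilson and Poisson intervals here cover counting error only.

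The ratio of miR-21 to the other above-background miRNA was taken as a further measure. These 40 miRNA had a median log2 fold change of 0.55 in EPFR and 0.59 in EPFR lo over filtered air. They were kept by their mean over all 24 mice, and 8 of the 40 had a filtered air mean at or under the 34.1 limit, so they passed through EPFR mice (5 of them with a mean over the limit there), EPFR lo mice (7 of them) or both. Over the other 32 the medians were 0.56 in EPFR and 0.57 in EPFR lo, and miR-21 ranked 4 of 33 in EPFR and 3 of 33 in EPFR lo. miR-21 itself lay near the limit in filtered air, with a mean of 34.9. Over all 566 probes, most of them at background, the medians were -0.085 in EPFR and 0.11 in EPFR lo. miR-21 ranked 6 of 41 by fold change in EPFR and 4 of 41 in EPFR lo, 0.65 and 0.55 log2 units above the median of the others. Per mouse, log2 miR-21 minus the mean log2 of those 40 miRNA was -0.14 ± 0.39 in EPFR and -0.66 ± 0.39 in filtered air (SD, n = 8 each), and the difference of 0.53 (SE 0.20) was past the threshold (exact permutation p = 0.0152, adjusted over 3 pairs 0.0457). For EPFR lo the value was -0.26 ± 0.63 (SD, n = 8), and its difference of 0.41 (SE 0.26) from filtered air was within the spread (exact permutation p = 0.143, adjusted 0.214). Against the 32 miRNA alone the differences from filtered air were 0.54 (SE 0.20, exact permutation p = 0.0151, adjusted 0.0452) in EPFR and 0.43 (SE 0.26, p = 0.125, adjusted 0.187) in EPFR lo. The EPFR call was lost on leaving out 1 mouse in 13 of 16 tests, with an adjusted p of up to 0.105 (without EPFR replicate 3, where the difference was 0.44). Both comparisons share the filtered air mice.

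**Figure D3:**
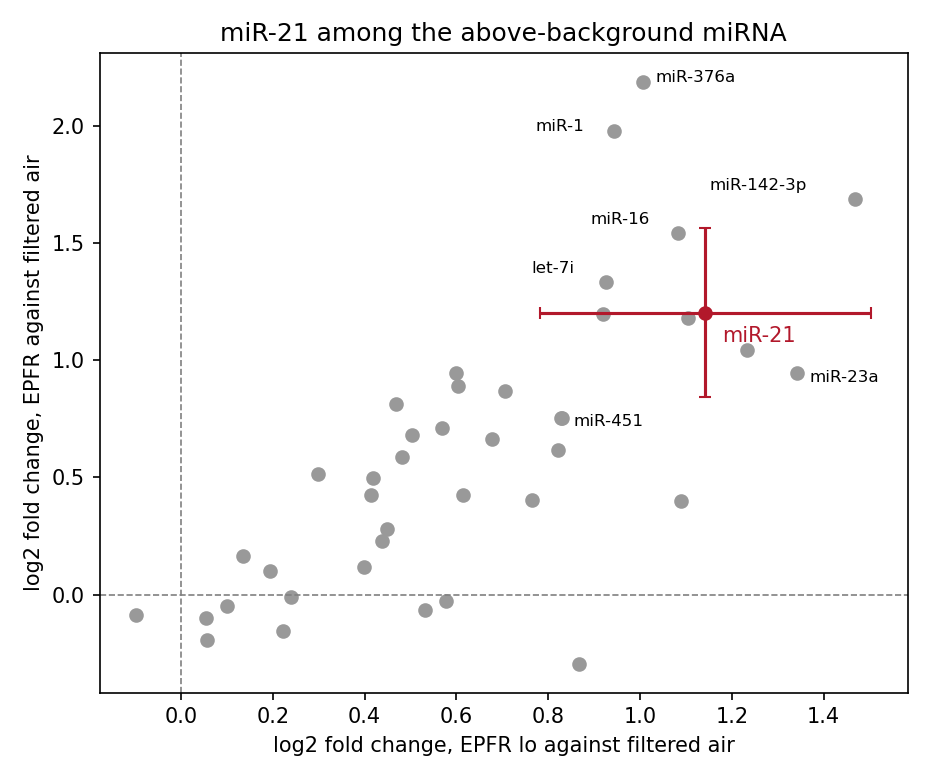
Log2 fold change against filtered air in EPFR (y axis) and EPFR lo (x axis) for the 41 above-background miRNA, with miR-21 in red and its bars ± 1 SE. Both axes share the same filtered air mice. miR-21 stands at 1.20 and 1.14, above the medians of the 40 others at 0.55 and 0.59.

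The level of miR-21 moved with the ligation controls of the assay. Ligation positive controls are synthetic RNAs added to each reaction that report how well the tag was ligated. Their geometric mean was 2286 ± 1247 counts in filtered air, 4119 ± 1978 in EPFR lo mice and 5134 ± 1829 in EPFR (SD, n = 8 each). Scaled by positive controls and compared on the log2 scale, they were 2.88-fold as high in EPFR as in filtered air (exact permutation p = 0.000622, adjusted over 3 pairs 0.00186), with all 8 EPFR mice above the filtered air median, and 1.98-fold as high in EPFR lo (exact permutation p = 0.0634, adjusted 0.0951). Across the 24 mice log2 miR-21 correlated with the log2 ligation controls (Pearson r = 0.76, permutation p = 1e-05, the smallest 100000 resamples can give, Spearman rho = 0.76, p = 4e-05). The relation held on deviations from the group means (r = 0.67), in replicates 1 to 4 (r = 0.75), in replicates 5 to 8 (r = 0.62) and without filtered air replicates 4 and 2 (r = 0.65). Scaling by the ligation controls gave log2 fold changes of -0.37 in EPFR (SE 0.44, edgeR adjusted p = 0.408) and 0.24 in EPFR lo (SE 0.44, adjusted p = 0.608), but this scaling moved the whole panel. Under it the median log2 fold change over 566 miRNA was -1.72 in EPFR, where 537 were called lower, and -0.99 in EPFR lo, where 30 were called lower, and miR-21 stood 1.35 and 1.23 above those medians. Scaling moves all probes of a mouse together, so this offset hardly depends on it (1.29 and 1.04 with positive-control and housekeeping scaling). It therefore cannot show how much of the difference goes with ligation yield. With the ligation level as a covariate the log2 fold changes were 0.33 (SE 0.45) in EPFR and 0.56 (SE 0.40) in EPFR lo. With that covariate and positive-control scaling they were 0.17 (SE 0.38) in EPFR and 0.57 (SE 0.33) in EPFR lo. Without the 4 mice with the lowest ligation controls (filtered air replicates 2 and 4, EPFR lo replicates 1 and 3) they were 1.04 (SE 0.41, edgeR adjusted p = 0.835) and 1.22 (SE 0.43, adjusted p = 0.279). The part of ligation yield in the difference of miR-21 between groups was not tested beyond these values, and it cannot be told apart from particle exposure where both move together.

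**Figure D4:**
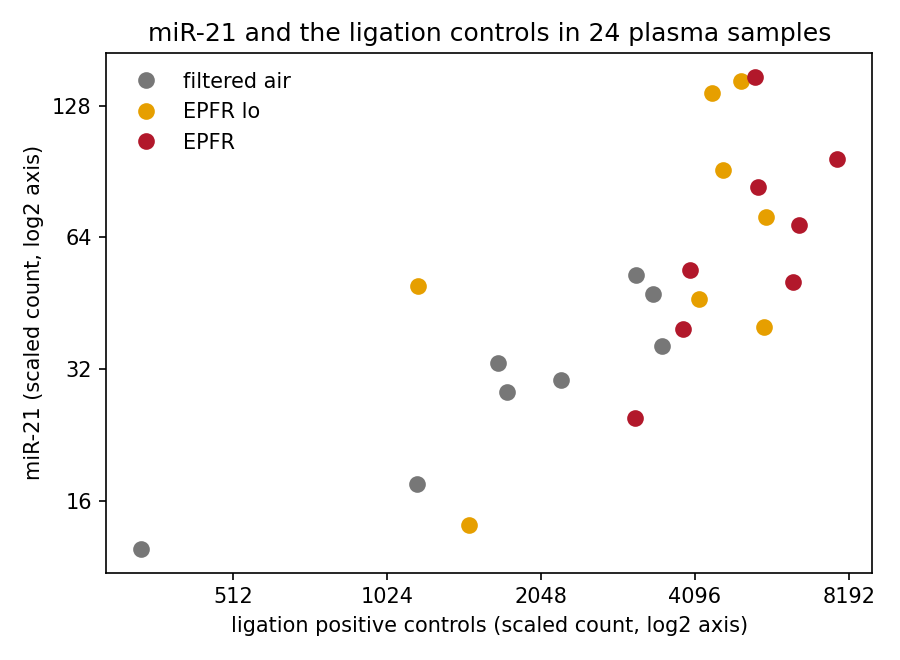
miR-21 (y axis) against the geometric mean of the ligation positive controls (x axis), both scaled by positive controls and on log2 axes, for 24 mice colored by group. The Pearson correlation of the log2 values is 0.76, and the filtered air mice lie toward the lower left.

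Of 5 sample measures set against miR-21, the sum of all other mouse miRNA was the closest (Pearson r = 0.89, permutation p = 1e-05, adjusted over 5 relations 2.5e-05, Spearman rho = 0.89), also within groups (r = 0.87) and without EPFR lo replicate 8 and EPFR replicate 3 (r = 0.85). Negative controls (r = -0.10, adjusted permutation p = 0.952), spike-in probes, which were at background (r = -0.042, adjusted 0.952), and the miR-451 to miR-23a ratio, a common measure of hemolysis (r = -0.013, adjusted 0.952), showed no relation past the threshold. Both miR-451 (r = 0.82) and miR-23a (r = 0.89) followed miR-21 on positive-control-scaled counts. On deviations from the group means the ratio had r = 0.040 with miR-21. The part of red blood cell content in the miR-21 level was not tested. After adjustment the ligation relation had a permutation p of 2.5e-05.

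The above-background miRNA most like miR-21 over the 24 mice, by Pearson r of log2(positive-control-scaled count + 1), were miR-16 (r = 0.91), miR-23a (0.89), miR-19a (0.88), the shared probe for miR-106a and miR-17 (0.88) and miR-223 (0.86). Since the median over the 40 others was 0.70, and all share each mouse's yield, the order was also taken on log2 shares of counts, where the median was 0.35. Shares do not fully remove yield, since their total holds the probes at background. There miR-16 (0.81), miR-23a (0.73), miR-223 (0.62), miR-142-3p (0.62) and miR-29a (0.60) led. miR-16 and miR-23a headed both orders. miR-19a and miR-142-3p are among the 8 miRNA that lay at or under the limit in filtered air, and their r on deviations from the group means was 0.86 and 0.76 on scaled counts. Among the other 32, miR-29a (0.86) takes the last place on scaled counts and miR-25 (0.59) the last place on shares. miR-16 is abundant in red blood cells, and miR-223 and miR-142-3p are abundant in blood cells. Other leukocyte miRNA followed miR-21 less closely: r was 0.79 on scaled counts and 0.43 on shares for miR-150, 0.70 and -0.040 for miR-146a, and -0.20 and -0.61 for miR-142-5p, which comes from the same hairpin as miR-142-3p and averaged 86.5 counts.

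miRNA of other sources were read beside miR-21 from lists of common knowledge. Over all 566 probes 0.707% were called in each comparison, and 37.1% had a log2 fold change above 0 in EPFR and 68.7% in EPFR lo. The red blood cell list (miR-451, miR-144, miR-16 and 6 others, 6 of 9 above background) summed to 1552 to 8054 raw counts in filtered air, 2377 to 15996 in EPFR lo mice and 1888 to 11408 in EPFR. Its median log2 fold change in EPFR over filtered air was 0.75, with 9 of 9 above 0 and 0 of 9 past the adjusted threshold, and in EPFR lo it was 0.60, with 9 of 9 above 0 and 1 past (miR-106b). The leukocyte list (6 miRNA, 5 above background) summed to 175 to 447 counts in filtered air, 197 to 739 in EPFR lo mice and 183 to 613 in EPFR, and 1 of 6 passed in each comparison (miR-142-3p). Its median log2 fold change was 0.61 in EPFR and 0.68 in EPFR lo over 5 members, leaving out miR-155, which read 1 count in all mice (0.37 and 0.54 with it). The platelet list (5 miRNA) had medians of 0.45 in EPFR and 0.53 in EPFR lo, with 0 of 5 passing in EPFR and 1 in EPFR lo (miR-23a). Their part in the miR-21 difference was not tested. The lung and airway epithelium list, with 1 of 9 members above background, summed to 119 to 173 counts in filtered air, 114 to 290 in EPFR lo mice and 110 to 167 in EPFR, and 0 of 9 passed in either comparison. Its medians were 0.14 in EPFR and 0.34 in EPFR lo over the 8 members that varied. The above-background member, miR-205, had -0.29 (SE 0.33) in EPFR and 0.87 (SE 0.32, edgeR adjusted p = 0.388) in EPFR lo. With 0.707% of all probes called, 0 of 9 does not set this list apart. The liver list (4 miRNA, 1 above background) had 0 of 4 past the threshold in EPFR and 1 in EPFR lo (miR-122), with median log2 fold changes of 0.17 and 0.88. The heart and skeletal muscle list (7 miRNA, 2 above background) had 1 of 7 past the threshold in EPFR (miR-1) and 0 in EPFR lo, with medians of 0.16 and 0.34, and the vascular wall list (6 miRNA, 1 above background) had 0 of 6 in each, with medians of 0.026 and 0.38.

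Other miRNA known to respond to tissue injury were read from a further list. Of 15 injury-responsive miRNA on the panel, among them miR-146a of inflammation, miR-34a of the p53 response and miR-210 of hypoxia, 0 passed the adjusted threshold in either comparison. With 0.707% of all probes called, a count of 0 in so short a list does not set it apart. Their median log2 fold change was -0.077 in EPFR and 0.16 in EPFR lo over the 14 that varied, beside -0.085 and 0.11 over all probes. Just 2 of the 15 were above background, miR-27a and miR-146a, and changes in the rest may not have been detectable. miR-155, an inflammatory miRNA on the list, gave no measurement, as above. The log2 fold change in EPFR was -0.026 (SE 0.35) for miR-27a and 0.12 (SE 0.32) for miR-146a, beside 1.20 (SE 0.36) for miR-21. Whether these differ from miR-21 was not tested.

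The difference was also read within replicate numbers, since the samples were run in several batches that are not assigned to mice in the sources used here. In replicates 1 to 4 the log2 fold change of miR-21 was 1.73 (SE 0.57) in EPFR and 1.71 (SE 0.57) in EPFR lo over filtered air. In replicates 5 to 8 it was 0.89 (SE 0.39) and 0.79 (SE 0.39). The change between these sets did not pass the threshold (interaction term in edgeR over all miRNA, -0.83, SE 0.68, adjusted p = 1.00 for EPFR and -0.92, SE 0.68, adjusted p = 0.411 for EPFR lo).

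**Figure D5:**
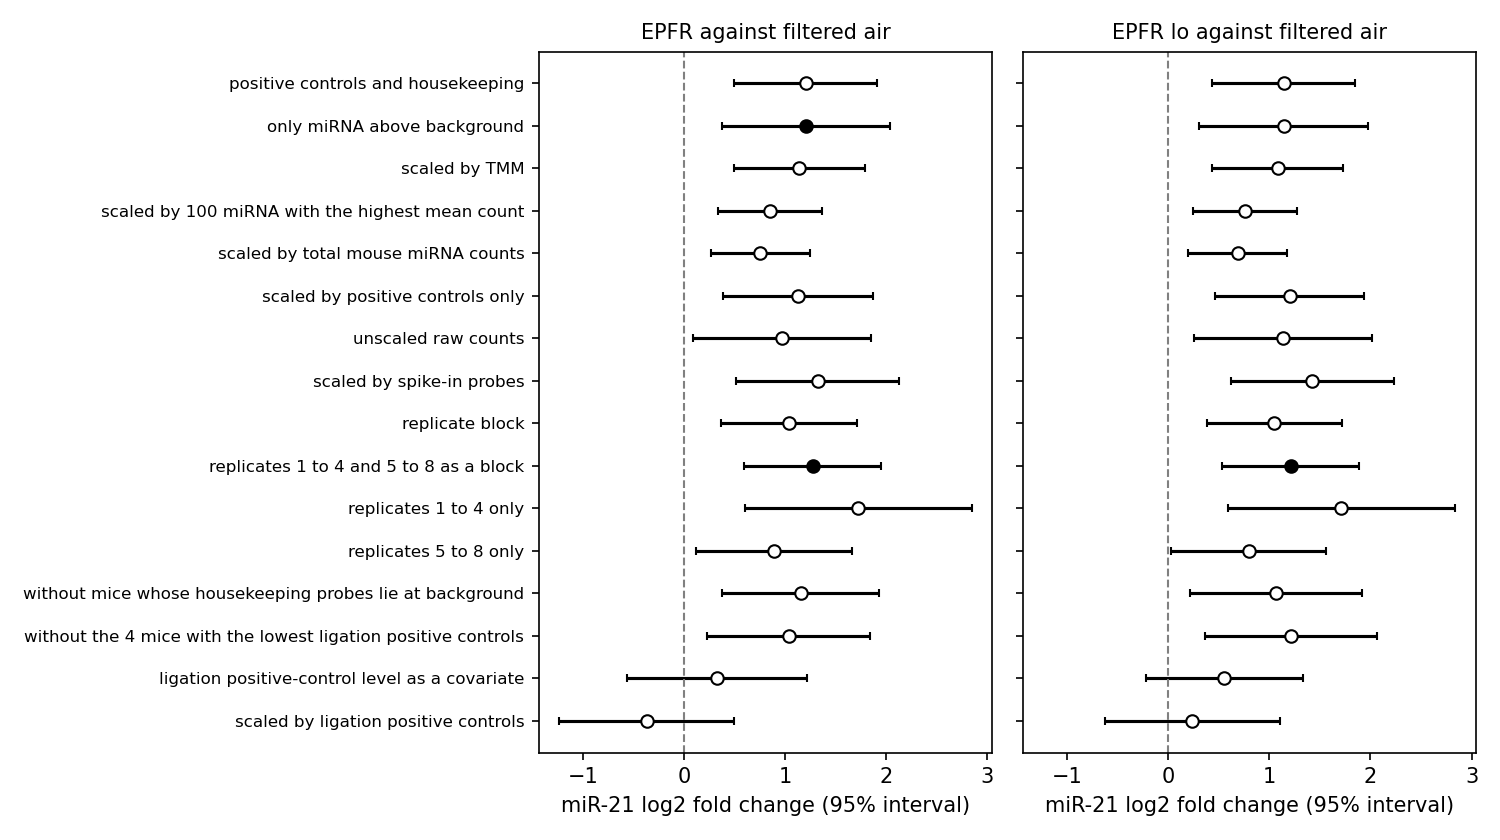
miR-21 log2 fold change (x axis) in EPFR (left) and EPFR lo (right) over filtered air under 16 settings (rows). Points are estimates, bars 95% intervals, and filled points have an adjusted p under 0.05 in edgeR. The values lie between 0.76 and 1.73 in EPFR until the ligation controls enter, as a covariate (0.33) or as the scaling (-0.37), under which the median of all 566 miRNA is -1.72.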

How the data were processed

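Plasma miRNA of 24 mice, 8 per group, was read on the NanoString nCounter mouse panel. The main deposited table holds unscaled raw counts, as the instrument read them. A second deposited table holds nSolver's normalized signal, for which the authors took the negative-control geometric mean off each count (floor 1), then scaled the result to positive controls and to Actb, B2m, Gapdh and Rpl19. Repeating these steps gave 100% of 13584 values within 2%. Deposited tables of the authors' fold changes and p-values were not used.

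The main test was edgeR's quasi-likelihood F test (version 4.0.16, in R 4.3.3), fitted to raw counts of the 24 mice with 1 factor, the exposure group, and with positive-control and housekeeping factors (0.576 to 1.66) as library scaling, no background subtraction and no filter. Benjamini-Hochberg adjustment was over 566 mouse miRNA, at 0.05. The fits were tested on simulated data. SE is the log2 fold change over the square root of F. The test draws the spread of each miRNA toward that of all 566, of which 525 lie at or below background. Its SE, p-values and intervals therefore do not measure the spread of miR-21 between mice alone. Alternatives used DESeq2 1.42.0 and limma 3.58.1. Permutation, Fisher and Wilson values used scipy. Sequences are from RefSeq, GRCm38.p6.

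Depth was 8418 to 30483 mouse miRNA counts per mouse. The housekeeping probes averaged 11.0 to 17.9 counts, in the range of the negative controls (11.0 to 29.0), and were all at background in 4 mice. miR-21 and the lists were chosen with earlier results of these data known. The rule for named miRNA took miR-21, panel miRNA of its seed, the 5 most alike on each scale, its abundance neighbors, miR-451, miR-16, miR-23a and up to 2 per marker list. The fit without the 4 mice with the lowest ligation controls and 2 fits that combine positive-control scaling with a block or covariate, and the ratio to miRNA above the limit in filtered air, were added after the data were seen.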

Additional observations from a re-analysis of the deposited data

How the results depend on the processing

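For EPFR over filtered air, 20 of 21 alternatives other than leaving out 1 mouse gave a positive log2 fold change, and ligation-control scaling turned the sign (-0.37, adjusted p = 0.408) while it moved the median of all 566 miRNA to -1.72 and called 537 lower. The call was gained with DESeq2 on the same scaling (1.21, adjusted over 29 miRNA, 0.318 over all 566), DESeq2 with its own size factors (1.16, adjusted over 171, 0.0820 over all 566), the above-background miRNA alone (1.20, 41 miRNA tested) and replicates 1 to 4 and 5 to 8 as a block (1.27). The above-background set was kept by its mean over all 24 mice. In filtered air 8 of the 40 others averaged at or under the limit, and no fit was run without those 8. Leaving out 1 mouse gave 0.97 to 1.37, and the call was gained without filtered air replicate 6 (1.35) or 8 (1.35), or EPFR replicate 1 (1.37), 2 (1.31) or 5 (1.31). For EPFR lo over filtered air, the call was gained with only the groups compared (1.14) and with that block (1.21), and leave-one-out gave 0.97 to 1.29, gained without filtered air replicate 6. For EPFR over EPFR lo the sign turned with positive controls only (-0.074), ligation controls (-0.60), spike-in (-0.10), raw counts (-0.17), the ligation covariate (-0.23, or -0.39 with positive-control scaling) and without the 4 mice with the lowest ligation controls (-0.18), and leave-one-out gave -0.17 to 0.24. For both particle groups, ligation scaling turned the sign (-0.066, with a panel median of -1.36 and 522 called lower), and the call was lost with positive controls only (1.16), raw counts (1.05), limma on deposited normalized counts (1.79), without the 4 mice whose housekeeping probes lie at background (1.11), in replicates 1 to 4 (1.72) or 5 to 8 (0.84), with the ligation covariate (0.44, or 0.37 with positive-control scaling), with the block and positive-control scaling (1.19) and without the 4 mice with the lowest ligation controls (1.13). DESeq2 with housekeeping scaling kept the call over the 29 miRNA of its filter (1.18, adjusted p = 0.00480) but not over all 566 (0.0937). With its own size factors DESeq2 kept it over all 566 (1.12, adjusted p = 0.0201). Leave-one-out in edgeR gave 1.06 to 1.32, and the call held in 9 of 24 fits, those without filtered air 5, 6 or 8, EPFR lo 1, 3 or 5, or EPFR 1, 2 or 5. The cause was not tested.

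With the replicate number as a replicate block the values were 1.04 (EPFR, adjusted p = 0.208), 1.05 (EPFR lo, 0.125), -0.014 (EPFR over EPFR lo, sign turned) and 1.04 (both, 0.0468), so no call changed. Deviations of same-numbered mice correlated over 0.1 in 13 of 24 pairs (3 of 8 between EPFR and filtered air, 4 of 8 between EPFR lo and filtered air, 6 of 8 between EPFR and EPFR lo). Since not every pair did, the numbers were not taken to pair the mice, and whether same-numbered mice share something was not tested.

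The ratio to the other abundant miRNA in EPFR lost its call with background subtracted (1.04) and in replicates 1 to 4 (0.66) or 5 to 8 (0.39), where an exact permutation of 4 against 4 mice cannot go below p = 0.0286 before adjustment. Leave-one-out gave 0.43 to 0.63 in EPFR, 0.31 to 0.58 in EPFR lo (gained without EPFR lo replicate 1) and -0.055 to 0.23 between them. The share lost its call in those sets of replicates in EPFR (0.179 and 0.192 percentage points) and EPFR lo (0.134 and 0.192), and in EPFR lo with background subtracted (0.253). Leave-one-out gave 0.155 to 0.216 in EPFR, 0.130 to 0.204 in EPFR lo (lost in 12 of 16, adjusted p up to 0.083 without EPFR lo replicate 6) and -0.019 to 0.055 between them, a difference that was -1.0e-04 in replicates 5 to 8. The scaled count on the log2 scale gained a call in EPFR with positive controls only (1.05), which turned the sign between the particle groups (0.041), and leave-one-out gave 0.84 to 1.32, 0.93 to 1.30 and -0.27 to 0.24. The mice above their own limit gave no call at any of 3 limits.

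Counts near background limit what can be seen: in filtered air 5 of 8 mice gave miR-21 at or under their limit.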
